A study of Homo sapiens with 6 samples.

Results

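The 10 genes described here are the coactivators YAP1 and WWTR1 (the gene of the TAZ protein), their DNA-binding partner TEAD1, and the YAP/TEAD target or feedback genes CCN1 (formerly CYR61), CCN2 (formerly CTGF), ANKRD1, AMOTL2, AJUBA, LATS2 and AXL. They were chosen by name, with earlier results of these data known, and all 10 were found by Ensembl identifier among the 27745 genes of the count table. RNA-seq was done on the triple-negative breast cancer line MDA-MB-231 after infection with a pLKO.1 lentivirus that carried an shRNA. The 3 groups of 2 libraries each were sh-TRC, the control hairpin with libraries CTR-1 and CTR-2, then sh-MIR100HG-1 with libraries KD1-1 and KD1-2, and last sh-MIR100HG-2 with libraries KD2-1 and KD2-2. Both knockdown hairpins target the long non-coding RNA MIR100HG, the host gene of several microRNAs, and the control cells were infected in the same way. The legend of the study calls the knockdown libraries biological replicates, and where cultures were not separate the p-values measure technical spread.

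In the Hippo pathway, the MST kinases activate the LATS kinases, which phosphorylate YAP1 and TAZ and so keep them out of the nucleus. When the kinases are off, as in stretched or sparsely plated cells, YAP1 and TAZ enter the nucleus, bind TEAD proteins and switch on genes for matrix proteins, cytoskeletal regulators and growth signals. Breast cancer cells of the mesenchymal type, such as MDA-MB-231, are known for active YAP1 and TAZ, and this line is known to carry an inactivating mutation of NF2, an upstream activator of the pathway. RNA counts do not measure the phosphorylation or location of YAP1 and TAZ, and in bulk RNA fewer expressing cells and less RNA per cell cannot be told apart.

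Total counts ranged from 43804736 to 64588388 per library, and 15372 genes passed the filter on low counts, all 10 members among them. MIR100HG itself was lower in every knockdown library, at 41.9 and 58.5 CPM in the controls against 10.4 to 16.6 CPM in the knockdowns (CPM, the count scaled to library size after TMM normalization). Its log2 fold change (log2FC) was -1.86, which did not pass edgeR's quasi-likelihood test after adjustment (adjusted p of 0.381) and did pass in edgeR's likelihood ratio test and in DESeq2 (adjusted p of 1.21e-06 and 5.2e-07). VIM, a mesenchymal marker, lay between 1607 and 2095 CPM and PGR, the progesterone receptor gene, had 1 read in 1 library and 0 in the others. ESR1, the estrogen receptor gene, had 140 and 185 reads in CTR-2 and KD1-1 (2.38 and 2.79 CPM) and 6 to 25 reads in the other libraries. CCN6, a low CCN family gene, set the same libraries apart, with 97 and 113 reads against 0 to 10. The part of this in the results was not tested, since CTR-2 and KD1-1 were left out 1 at a time and never together. Leaving out either turned the sign of 0 members for the mean of both shRNAs against control, but sizes moved. Without CTR-2 the log2FC of CCN1 went from 0.78 to 0.49 and that of AXL from 0.42 to 0.59. By comparison, ERBB2, the HER2 gene, had 71.6 to 116 CPM. The leukocyte marker PTPRC stayed at or below 0.69 CPM. The share of counts on the 13 mitochondrially encoded protein genes was 2.41% to 3.46% in the control and sh-MIR100HG-1 libraries and 1.52% and 1.84% with sh-MIR100HG-2, and its part in any result below was not tested.

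The members covered a wide span of expression in the control cells. Per kilobase of exon (RPKM, CPM divided by the gene length deposited with the counts), CCN1 was first with a mean level of 899.5 ± 282 (SD, n = 2). CCN1 encodes a secreted matrix protein that binds integrins. By mean CPM over all 6 libraries, knockdowns included, it ranked 7 among all genes tested, taking 0.173% to 0.507% of all counts in a library. ANKRD1, a nuclear ankyrin-repeat cofactor, followed with 236 ± 4.86 RPKM and AXL, a receptor tyrosine kinase, with 218 ± 33.8, and the control values of these neighbours overlapped. CCN2, the matrix protein connective tissue growth factor, had 96.6 ± 14.0 RPKM. The scaffold genes AJUBA (56.9 ± 1.83) and AMOTL2 (54.9 ± 7.11) overlapped each other, and YAP1 came next with 44.3 ± 4.96. TEAD1 had 23.9 ± 3.19 RPKM. WWTR1 (12.8 ± 0.684) and LATS2 (12.0 ± 0.779), the latter a kinase that inhibits YAP1, were last and overlapped.

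**Figure D1:**
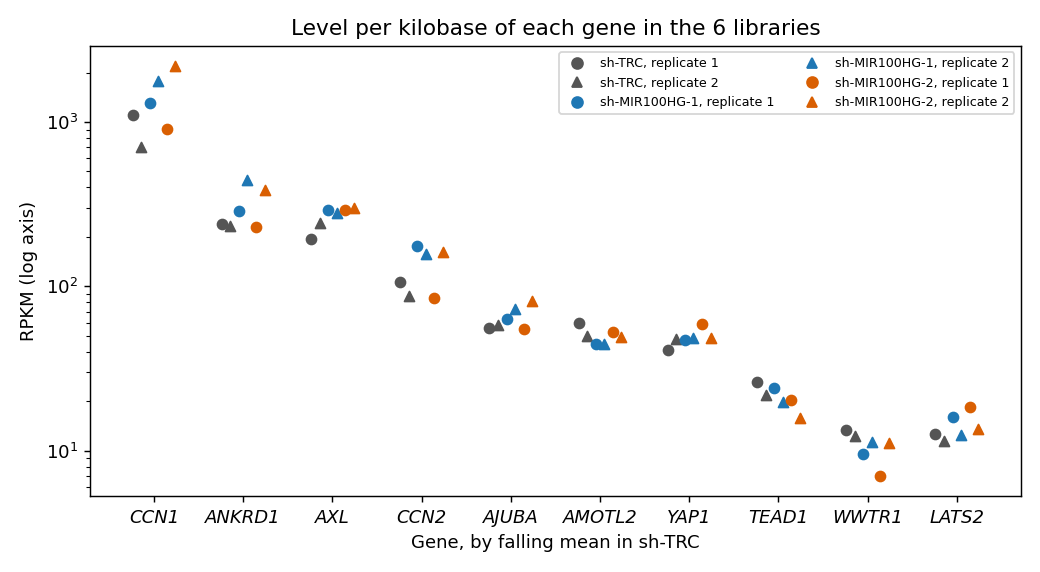
Level of each gene in the 6 libraries as RPKM on a log axis, with colour for the group and shape for the replicate; genes run by falling mean in the sh-TRC control. CCN1 reaches 2180 RPKM in its highest library and WWTR1 falls to 7.03 RPKM in its lowest.

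The first question was whether the coactivators and TEAD1 differed after knockdown. YAP1 was slightly higher and WWTR1 and TEAD1 were lower on average, and none of these differences passed the test. YAP1 lies on the plus strand of chr11:101981192-102104154 (GRCh37, as for all gene positions given). YAP1 had 257 and 301 CPM in the controls, 298 and 307 in the KD1 group, and 373 and 306 in the KD2 group. Its groups overlapped, since KD1-1 lay below CTR-2. For the mean of both shRNAs, the log2 fold change of YAP1 was 0.20 (SE, the standard error, 0.18, adjusted p of 0.840, edgeR). It was 0.089 without CTR-1 and 0.32 without CTR-2.

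WWTR1 was the one factor with no overlap between control and knockdown libraries. The gene lies on the minus strand of chr3:149235022-149454501. It had 112 CPM in CTR-1 and 104 in CTR-2, 80.1 in KD1-1 and 94.95 in KD1-2, then 59.1 and 94.1 in KD2-1 and KD2-2. All 4 knockdown libraries lay below both controls, with KD2-1 far below the rest. Over all genes tested, 17.5% had no overlap between control and knockdown libraries. The log2FC was -0.40 (SE 0.22, 95% interval -0.91 to 0.11), with an adjusted p of 0.714, unadjusted p of 0.111 in edgeR's test. Without KD2-1 the log2FC was -0.25, and without KD2-2 it was -0.59.

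YAP1 was higher on average with overlapping groups, and WWTR1 was lower without overlap. Their ratio within a library, which needs no normalization between libraries, was also taken after their values were seen. YAP1 RPKM divided by WWTR1 RPKM was 3.06 in CTR-1, 3.87 in CTR-2, then 4.97 and 4.32 in KD1-1 and KD1-2, and 8.42 and 4.34 in KD2-1 and KD2-2. Every knockdown library had a higher ratio than both controls, with a two-sided exact permutation p of 0.133, where 0.0667 is the smallest p that 4 libraries against 2 allow. The sum of both genes had a mean of 57.2 RPKM in the control and 60.7 in the knockdown libraries (exact permutation p of 0.467).

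TEAD1, on the plus strand of chr11:12696138-12966030, had 269 and 223 CPM in the controls, 246 and 202 in the KD1 group, and 208 and 161 in the KD2 group. Both sh-MIR100HG-2 libraries lay below both controls, while KD1-1 lay between the controls. For TEAD1 the log2FC was -0.27 (SE 0.20, adjusted p of 0.790, edgeR), and it was -0.13 without CTR-1. TEAD4, a second member of the same DNA-binding family, was higher in every knockdown library, at 18.8 and 21.8 CPM in the controls against 30.7, 29.7, 32.8 and 37.7 CPM in KD1-1, KD1-2, KD2-1 and KD2-2. The log2FC of TEAD4 was 0.69 (SE 0.20), with an adjusted p of 0.503, unadjusted p of 0.00854 in edgeR's test. Per kilobase, TEAD4 made up 13.3% and 13.8% of the summed RPKM of TEAD1 to TEAD4 in the controls and 19.9% to 22.04% in the knockdown libraries (exact permutation p of 0.0667). TEAD4 was picked by its difference in these same libraries, so the p of its share is no separate support. TEAD1 made up 42.2% and 31.2% in the controls and 35.2%, 33.2%, 29.3% and 20.7% in the knockdown libraries in the same order, so its shares overlapped. The sum over the 4 TEAD genes had a mean of 65.9 RPKM in the control and 68.1 RPKM in the knockdown libraries.

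**Figure D2:**
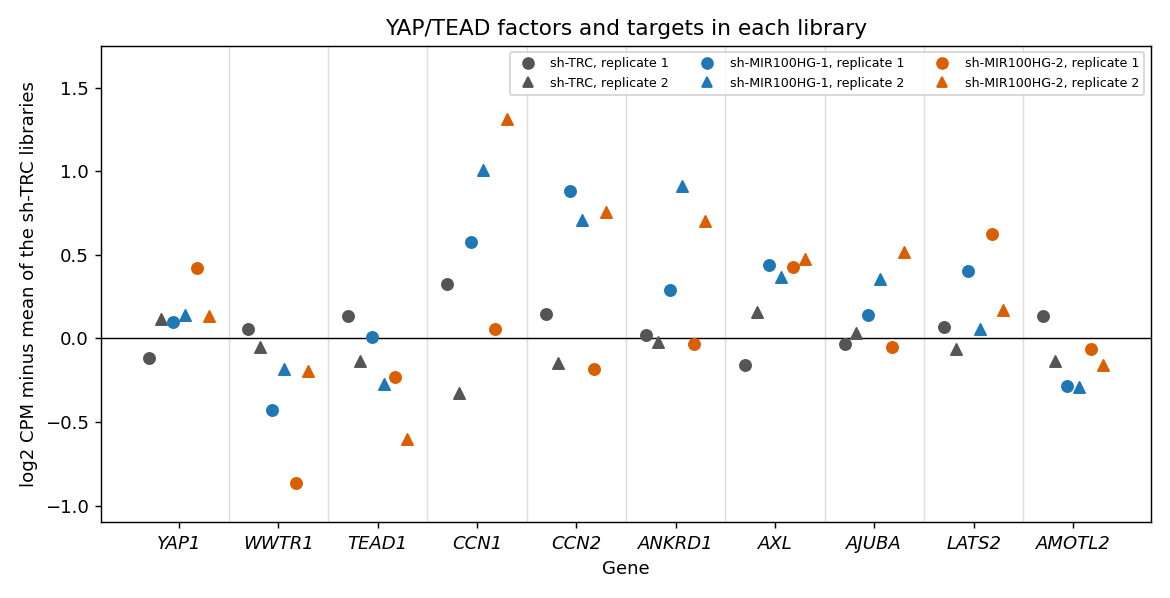
Each of the 10 genes in each library, as log2 CPM minus the mean of the sh-TRC libraries, with colour for the group and shape for the replicate; the line at 0 is the control mean. All 4 knockdown points lie above both control points for AXL and below them for WWTR1, and the sh-MIR100HG-2 replicates lie far apart for CCN1, CCN2 and ANKRD1.

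The target genes of YAP and TEAD are read through short TEAD-binding letters in promoters and distant enhancers. The core letters GGAATG were searched on both strands in RefSeq promoter windows (GRCh38.p14), which run from 250 bases before to 50 bases after a gene start. The table held 12 windows of 8 members, CCN1 and TEAD1 not being in it, and 7 of the 12 windows, 1 in each of 7 members, held a match. In AJUBA, AMOTL2 and AXL the match lay in the window of a gene start further downstream, and the window of the upstream start held 0. Of all 35114 windows of that length, 14.0% held the letters, 1.37% held at least 2 matches and 0.128% held at least 3. Most members were chosen as known YAP/TEAD target or feedback genes, so a larger share among them is no test of that label. CCN2 had 3 matches and ANKRD1 had 2, and WWTR1 had 0. The 30-base stretches around matches before the gene start are shown for the target genes, with the letters of the match in capitals on the strand of the gene (CATTCC where the match is on the other strand).
CCN2, chr6:131951450-131951479, minus strand: ggaGGAATGcgaGGAATGtccctgtttgtg
CCN2, chr6:131951524-131951553, minus strand: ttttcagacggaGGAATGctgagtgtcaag
ANKRD1, chr10:90921198-90921227, minus strand: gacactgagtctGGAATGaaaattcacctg
ANKRD1, chr10:90921290-90921319, minus strand: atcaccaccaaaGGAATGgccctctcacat
AMOTL2, chr3:134374499-134374528, minus strand: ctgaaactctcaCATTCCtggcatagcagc
AJUBA, chr14:22976884-22976913, minus strand: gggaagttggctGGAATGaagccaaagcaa
AXL, chr19:41226531-41226560, plus strand: cagactttgcacCATTCCactccctccgct
In LATS2 the match lay after the gene start, from position 10 to 15, and in YAP1 it lay from 162 to 157 bases before the start. The AP-1 letters TGANTCA, searched the same way, were found in ANKRD1 alone among the members and in 7.71% of all windows, and the CArG box bound by SRF was found in 0 member windows against 1.29% of all windows. The AP-1 match in ANKRD1 does not overlap its TEAD matches. A match of letters is a description and does not show binding.

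The classic targets CCN1, CCN2 and ANKRD1 had the largest positive differences of the 10 genes, and none passed the test. With sh-MIR100HG-1 both libraries exceeded both controls for each of these genes. In that comparison 40.5% of all genes tested did not overlap, in either direction. With sh-MIR100HG-2 the replicates disagreed: KD2-2 lay above both controls, and KD2-1 lay within the range of the controls for CCN1 and below both for CCN2 and ANKRD1.

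CCN1 lies on the plus strand of chr1:86046444-86049645. CCN1 had 2698 CPM in CTR-1 and 1719 in CTR-2, then 3209 and 4337 in KD1-1 and KD1-2, and 2238 and 5352 in KD2-1 and KD2-2. Its mean was 2208 ± 692 CPM in the control, 3773 ± 798 in the KD1 group and 3795 ± 2202 in the KD2 group (SD, n = 2 each). The log2FC was 0.78 (SE 0.36, 95% interval -0.05 to 1.60), with an adjusted p of 0.665, unadjusted p of 0.0612 in edgeR's test. CCN1 had 101165 to 267931 counts per library, and its interval also rests on the dispersion shared with other genes. When genes with few counts were kept in the fit, the same edgeR test gave CCN1 an adjusted p of 0.00444 with a log2FC of 0.78, and of the 13 alternatives run this was the only one that called a member. That fit called 392 of 21349 genes, against 0 of 15372 in the filtered fit. The sh-MIR100HG-2 replicates differed 2.39-fold in CCN1, a ratio exceeded by 10.02% of all genes tested in that group. Without KD2-2 the log2FC for the mean of both shRNAs was 0.39, and without CTR-1 it was 1.14.

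CCN2 lies on the minus strand of chr6:132269316-132272513. It had 249.1 and 202.8 CPM in the controls, 414 and 368 in the KD1 group, and 198 and 379.9 in the KD2 group. The log2FC was 0.57 (SE 0.27, adjusted p of 0.670, unadjusted p of 0.0671, edgeR). With sh-MIR100HG-1 alone it was 0.79, with an adjusted p of 0.714, unadjusted p of 0.0324. Without KD2-2 the value for both shRNAs was 0.30.

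ANKRD1, on the minus strand of chr10:92671853-92681033, had nearly equal control values, 473 and 459.6 CPM, and then 569 and 876 CPM in the KD1 group and 456 and 758 in the KD2 group. The log2FC was 0.51 (SE 0.26, adjusted p of 0.692, unadjusted p of 0.0909, edgeR), and it was 0.29 without KD2-2. Its knockdown replicates differed 1.54-fold and 1.66-fold, against 1.03-fold between the controls.

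AXL, the receptor for GAS6 that is known for invasive breast cancer cells, was the member with the smallest p. The gene lies on the plus strand of chr19:41725108-41767671. It had 999 CPM in CTR-1 and 1246 in CTR-2, 1512 and 1438 in the KD1 group, and 1502 and 1551 in the KD2 group. All 4 knockdown libraries lay above both controls, and they lay closer to each other than the controls did. The exact permutation p of 0.0667 is the smallest that 4 libraries against 2 allow. AXL is singled out by its p in these same libraries, so the permutation p is no separate support. The mean was 1123 ± 174 CPM in the control, 1475 ± 52.0 in the KD1 group and 1526 ± 34.8 in the KD2 group (SD, n = 2 each). The log2FC was 0.42 (SE 0.18, 95% interval 0.01 to 0.82), with an adjusted p of 0.642, unadjusted p of 0.0440 in edgeR's test. Without CTR-1 it was 0.27 and without CTR-2 it was 0.59. The related receptors TYRO3 and MERTK and the ligands GAS6 and PROS1 had log2FC values of 0.11, -0.10, -0.20 and 0.17 and adjusted p-values of 0.832 or more. Of these 4 genes, 0 had all knockdown libraries on one side of the controls, where 17.5% of all genes tested did. The signs of TYRO3, MERTK and PROS1 turned when single libraries were left out, and GAS6 was at -0.11 without CTR-2.

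The feedback genes gave smaller differences. AJUBA, a LIM protein that inhibits LATS kinases (minus strand of chr14:23440383-23451851), had 333 and 348 CPM in the controls, 376 and 435 in the KD1 group, and 328 and 487 in the KD2 group, with KD2-1 the lowest library of all. Its log2FC was 0.26 (adjusted p of 0.818, edgeR), and it was 0.092 without KD2-2. LATS2, on the minus strand of chr13:21547171-21635686, had 70.2 and 64.0 CPM in the controls, 88.8 and 69.8 in the KD1 group, and 103 and 75.6 in the KD2 group, so that 1 knockdown library fell between the controls. Its log2FC was 0.33 (adjusted p of 0.754, edgeR), and it was 0.21 without KD2-1. AMOTL2, an angiomotin that binds YAP1 and holds it in the cytoplasm, was the only target or feedback gene of the 10 with a negative value. The gene lies on the minus strand of chr3:134074716-134094321. It had 359 and 299 CPM in the controls, 268 in each sh-MIR100HG-1 library, and 314 and 293 in the KD2 group, a log2FC of -0.20 (adjusted p of 0.825, edgeR), and that value was -0.066 without CTR-1 and -0.33 without CTR-2. In AJUBA, 50 of the counted exon bases also belong to another gene on the same strand, and in the other members no exon base is shared with a gene of the table.

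Across the 10 genes, 0 passed an adjusted p of 0.05 for the mean of both shRNAs against control, where 0% of all genes tested did, and adjusted p-values ran from 0.642 to 0.840. At an unadjusted p under 0.05 there was 1 member, AXL, against 7.68% of all genes tested. edgeR's likelihood ratio test and DESeq2 also called 0 members at an adjusted p of 0.05, while they called 109 and 129 of the 15372 genes. In 2 members, AXL and WWTR1, the control and knockdown libraries did not overlap, against 17.5% of all genes. Of the members, 7 were higher and 3 lower, with a median log2FC of 0.29, and over all genes tested 45.6% were higher and the median was -0.04. The counts of members called or without overlap lie near these shares, and the median was not tested.

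**Figure D3:**
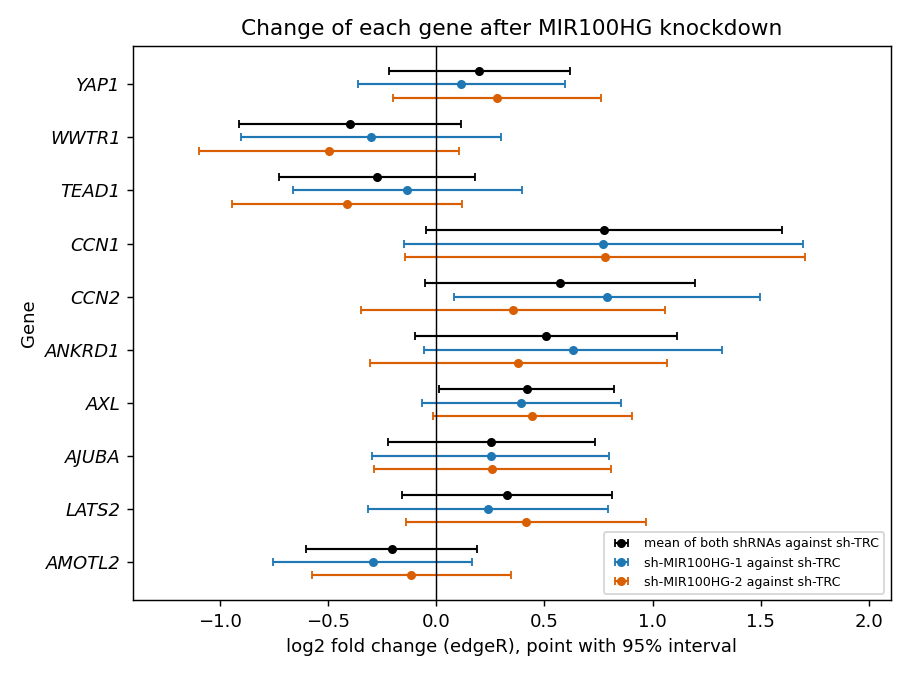
log2 fold change from edgeR with its 95% interval for each gene, for the mean of both shRNAs and for each shRNA against the sh-TRC control. For the mean of both shRNAs, the interval of AXL (0.01 to 0.82) is the only one that does not cross 0, and intervals are not adjusted for the number of genes.

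The shRNAs were next compared with each other. With sh-MIR100HG-1 against control, 7 members were higher and 3 lower, with CCN2 the one member at an unadjusted p under 0.05, against 6.87% of all genes. The KD1 and control libraries did not overlap in 7 members, against 40.5% of all genes, and 49.7% of all genes were higher. With sh-MIR100HG-2 the same 7 were higher and the same 3 lower, with 0 members at that p, against 8.86% of all genes. The KD2 and control libraries did not overlap in 5 members, against 38.5% of all genes, and 45.8% of all genes were higher. Both comparisons share the control libraries, so the shared signs are not independent. In the direct test between the hairpins (KD2 minus KD1), 0 members had an unadjusted p under 0.05, against 9.45% of all genes, and adjusted p-values ran from 0.635 to 0.995. Here 6 members were higher and 4 lower with sh-MIR100HG-2, and 49% of all genes were higher. The largest gap was that of CCN2, at -0.44 with a 95% interval of -1.14 to 0.27. CCN1 differed by 0.01 on the log2 scale with an interval of -0.91 to 0.93, so the data leave room for a difference between hairpins in either direction. For AXL the interval was narrower, -0.41 to 0.51 around 0.05. AMOTL2 was the one member whose sh-MIR100HG-2 libraries both lay above both sh-MIR100HG-1 libraries, where 43.9% of all genes did not overlap.

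Other genes of the pathway were taken as lists, written with earlier results of these data known, and 0 genes of any list passed an adjusted p of 0.05 in edgeR's quasi-likelihood test. Among 24 kinases and regulators of the Hippo cassette, 15 were higher and 9 lower, with a median log2FC of 0.07, and 3 of the 24 had an unadjusted p under 0.05. Over all genes tested 45.6% were higher, 7.68% had such a p, and in 17.5% the control and knockdown libraries did not overlap. These shares also stand beside the lists that follow. FRMD6, an upstream FERM-domain activator of the pathway, had 306 and 259 CPM in the controls and 395, 479, 489.9 and 485 in the knockdown libraries, a log2FC of 0.71 (adjusted p of 0.476, unadjusted p of 0.00473, edgeR). PTPN14, a phosphatase that binds YAP1 and is also a YAP target, had 207 and 221 CPM in the controls and 329, 323, 333 and 383 in the knockdown libraries, a log2FC of 0.67 (adjusted p of 0.476, unadjusted p of 0.00455, edgeR). In both genes every knockdown library lay above every control. Of the 24 genes, 3 had all knockdown libraries above the controls and 0 had all below, against the 17.5% of all genes without overlap. RASSF1, a scaffold of the MST kinases, was lower, with a log2FC of -0.63 (adjusted p of 0.642), and its groups overlapped. Without CTR-2 the value was -0.18, and without CTR-1 it was -0.97. AMOT had at most 22 reads in a library and a log2FC of -0.54 (adjusted p of 0.908), which ran from -1.56 without KD2-1 to -0.13 without KD2-2.

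Of 7 TEAD relatives and VGLL cofactors, 6 were tested, of which 4 were higher and 2 lower, and 3 had an unadjusted p under 0.05, against 7.68% of all genes. One of these, VGLL2, had few reads. Beside TEAD4, the cofactor gene VGLL4, whose product competes with YAP1 for TEAD, had 24.9 and 20.9 CPM in the controls and 37.7, 35.9, 35.6 and 25.9 in the knockdown libraries, a log2FC of 0.56 (adjusted p of 0.632, unadjusted p of 0.0338, edgeR). TEAD2 had a log2FC of -0.55 (adjusted p of 0.789) with overlapping groups, and it was -0.23 without CTR-2 and -0.94 without KD1-1. VGLL2 had 12 and 5 reads in the controls, 16 and 6 in the KD1 group and 0 in each sh-MIR100HG-2 library, too few for a fold, with an adjusted p of 0.616, unadjusted p of 0.0303 in edgeR's test.

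Among 16 other genes of a 22-gene signature of YAP/TAZ targets, 9 were higher and 7 lower, with a median log2FC of 0.13, and 3 had an unadjusted p under 0.05. These were PTPN14, FJX1 and IGFBP3. FJX1, a secreted protein of the Hippo-linked Fat pathway, had 66.7 and 95.5 CPM in the controls and 98.8 to 152 in the knockdown libraries (log2FC of 0.62, adjusted p of 0.574, and 0.38 for the log2FC without CTR-1). IGFBP3, a binding protein for insulin-like growth factors, was lower in every knockdown library, with 57.2 and 60.2 CPM in the controls, 41.2 and 43.1 in the KD1 group and 34.0 and 34.2 in the KD2 group. Its log2FC was -0.63 (SE 0.17, adjusted p of 0.476, unadjusted p of 0.00586, edgeR), and the other 2 named here had positive values. F3, the tissue factor gene, had a log2FC of -0.61 (adjusted p of 0.726) with overlapping groups. It had 505 and 457 CPM in the controls and 192, 468, 213 and 392 in KD1-1, KD1-2, KD2-1 and KD2-2, and the log2FC ran from -0.997 without KD1-2 to -0.35 without KD1-1.

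Of 14 further reported targets, 10 were higher and 4 lower, with a median of 0.19, and 0 had an unadjusted p under 0.05. THBS1, the matrix protein thrombospondin 1, was split between replicates, with 1433 and 1136 CPM in the controls, 1263 in KD1-1, 1164 in KD2-1, 3631 in KD1-2 and 3843 in KD2-2. Only the second replicate of each hairpin exceeded the controls, and the log2FC of 0.95 had an SE of 0.53 (adjusted p of 0.708, edgeR) and was 0.39 without KD2-2. MYC, the growth-promoting transcription factor, had 265 and 174 CPM in the controls and 299.9, 428, 201 and 414 in the knockdown libraries in the order KD1-1, KD1-2, KD2-1, KD2-2, a log2FC of 0.61 (adjusted p of 0.702) that was 0.30 without KD2-2 and 0.94 without CTR-1. FGF2 and BIRC5 had the lowest values of that list, -1.08 and -0.21, and FGF2 had at most 32 reads in a library. Without CTR-2 the value of BIRC5 was -0.037, and the sign of FGF2 turned without CTR-1.

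The relatives of CCN1 and CCN2 that were tested had negative values. Of the 4 other CCN genes 2 were tested, and CCN3, a matrix protein that is known to oppose CCN2, had 6.20 and 10.8 CPM in the controls, 2.88 and 1.72 in the KD1 group and 4.45 and 2.12 in the KD2 group. All 4 knockdown libraries were below both controls, and the log2FC was -1.63 (SE 0.40, adjusted p of 0.447, unadjusted p of 0.00329, edgeR). The likelihood ratio test and DESeq2 put it past the threshold, with adjusted p-values of 0.0345 and 0.0226. The log2FC of CCN3 ran from -1.98 without CTR-1 to -1.17 without CTR-2. CCN5 had a log2FC of -0.64 (adjusted p of 0.774), which ran from -1.09 without KD2-2 to -0.37 without CTR-2. Genes of SRF and its cofactor MRTF, which share CCN1, CCN2 and ANKRD1 as targets with YAP, had a median log2FC of 0.02 over the 10 tested, 5 higher and 5 lower. CNN2, an actin-binding calponin, had 153 and 240.0 CPM in the controls and 305 to 421 in the knockdown libraries (log2FC of 0.81, adjusted p of 0.488, unadjusted p of 0.00705, edgeR). SRF had a log2FC of 0.31, ACTA2 of -0.31 and CNN1 of -0.75, with adjusted p-values of 0.768 or more and at most 20 reads a library for CNN1. Without CTR-1 the log2FC of CNN2 was 0.52 and that of SRF 0.10, and the signs of ACTA2 and CNN1 turned when single libraries were left out.

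**Figure D4:**
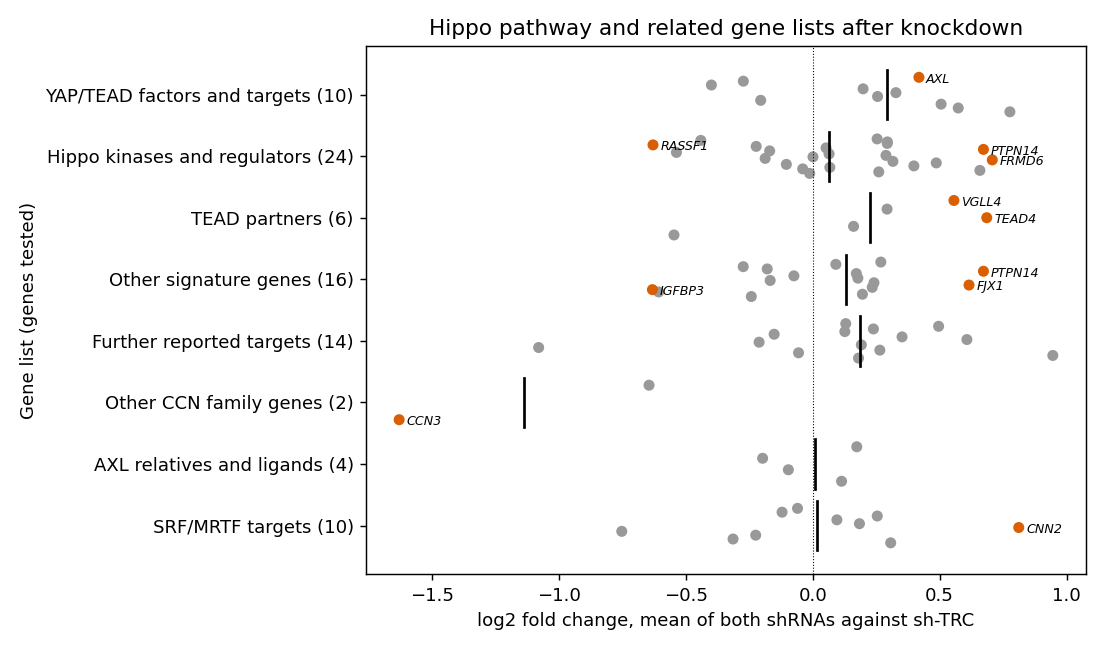
log2 fold change for the mean of both shRNAs against the sh-TRC control for each tested gene of the lists, 1 point a gene, with a bar at the median of each list; orange points have an unadjusted p under 0.05 and are named. VGLL2, with 0 reads in 2 libraries, is left out of the points, and the medians run from -1.14 for the 2 other CCN genes to 0.29 for the YAP/TEAD factors and targets.

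The profile over the 6 libraries was last compared with that of all other genes tested, as the root mean square difference of log2 CPM after each gene was centred on its own mean. The genes nearest to CCN1 were CRACD (0.0984), MYC (0.130) and DHCR7 (0.133), the last of which encodes an enzyme of cholesterol synthesis. The nearest to CCN2 were C5AR2 (0.114), an unnamed gene listed as ENSG00000265799 (0.118) and SLC16A10 (0.1249), of which the first and second stayed under 0.5 CPM in every library. Among the members, CCN1 and CCN2 were each nearest to ANKRD1, at 0.278 and 0.269, but 124 other genes lay nearer to CCN1 and 174 nearer to CCN2. YAP1 was nearest to AXL among the members, at 0.156, with 1036 other genes nearer. With 6 libraries and 15372 genes such nearness is a description of these libraries.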

How the data were processed

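RNA-seq counts of 6 MDA-MB-231 libraries were used. Per the methods, the authors trimmed barcodes, mapped reads to GRCh37 with STAR (version 2.5.2a in the submitters' processing notes, while the methods name another version), assigned them to exons of GENCODE genes with FeatureCounts and deposited raw counts per gene with gene lengths. Strand setting and treatment of multi-mapping reads are not given in the sources used here. Symbols were joined by Ensembl identifier for 26966 genes, and 779 had no match. Genes with under 5 counts in at least 3 libraries were removed (12373 genes), as in the methods. Counts were scaled by TMM and all 3 groups were fitted in 1 model with edgeR 4.0.16 (R 4.3.3), with 3 residual and 5.37 prior degrees of freedom, by the quasi-likelihood test and Benjamini-Hochberg adjustment over all 15372 genes. The methods name a quasi-likelihood method but give the function glmLRT, which runs edgeR's likelihood ratio test, so that either test may be the authors' own. They call genes at an adjusted p at or below 0.05 with a log2FC above 2 or below -2, and here the adjusted p alone was also used. Intervals are the log2FC with its standard error and 8.37 degrees of freedom. The common biological coefficient of variation was 27.8%. Exact permutation tests compared mean log2 values of 4 knockdown and 2 control libraries over all 15 arrangements (for single genes with a small pseudocount on the CPM). The fit was tested on simulated data. DESeq2 1.42.0 and edgeR's likelihood ratio test, RLE scaling, no filter, the bias-adjusted fit, a replicate block and leaving out each library were alternatives.

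The members and lists were chosen with earlier results of these data known. From each list, genes at an unadjusted p under 0.05 and up to 2 genes with the highest and 2 with the lowest log2FC are named, and for CCN1 and CCN2 the 3 genes with the nearest profile. The marker PECAM1 was not analysed here.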

Additional observations from a re-analysis of the deposited data

How the results depend on the processing

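For the mean of both shRNAs against control, the 10 members kept their direction in all 130 values from 13 alternatives. The count of members called moved from 0 to 1 (CCN1) only when genes with few counts were kept, with either hairpin and with their mean against control. Over all genes at an adjusted p of 0.05, the count went from 0 to 109 with the likelihood ratio test, 129 with DESeq2 and 392 without the filter; with the log2FC threshold of 2 these were 26, 9 and 123. RLE scaling, the bias-adjusted fit and leaving out any library gave 0 for both. The cause was not tested. Of the list genes named, CCN3 passed with the likelihood ratio test, DESeq2 and no filter, and THBS1 and CNN2 with no filter alone.

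Replicate numbers are shared by the groups, but deviations of same-numbered libraries correlated at -0.21 (control and sh-MIR100HG-1) and 0.02 (control and sh-MIR100HG-2). Knockdown and control libraries were therefore not taken as pairs. Between the shRNAs the correlation was 0.50, so same-numbered knockdown libraries were alike in part. The main fit treats all 4 knockdown libraries as independent all the same. With the replicate block 0 members and 0 genes were called, and with the control numbers crossed, an alternative chosen after seeing the data, 0 and 0. Between the shRNAs the sign turned with the block for CCN1 (-0.039, crossed -0.099) and AJUBA (-0.011, crossed -0.00835).

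Signs that turned when libraries were left out in turn are given as ranges of the log2FC. Between the shRNAs these were -0.75 to 0.50 for CCN1, -0.66 to 0.11 for ANKRD1, -0.31 to 0.26 for AJUBA, -0.069 to 0.38 for LATS2 and -0.57 to 0.10 for WWTR1. For sh-MIR100HG-2 against control they were -0.19 to 0.75 for CCN2, -0.04 to 0.70 for ANKRD1, -0.24 to 0.023 for AMOTL2 and -0.060 to 0.52 for AJUBA, and for sh-MIR100HG-1 -0.28 to 0.0092 for TEAD1. For the mean of both shRNAs they were -1.75 to 0.19 for FGF2, -0.13 to 0.52 for PROS1, -0.041 to 0.29 for TYRO3, -0.25 to 0.076 for MERTK, -1.48 to 0.13 for CNN1 and -0.70 to 0.22 for ACTA2.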
